A study of Mus musculus with 37 samples.

Results

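The genes described here encode the factors that start and elongate protein synthesis on cytosolic ribosomes, together with their closest regulators. They were the rows of the deposited table whose symbols begin with Eif followed by a digit from 1 to 6 or Eef followed by 1 or 2, plus Bzw1 and Bzw2, and they numbered 64 of 23947 genes. Eif2s3y, the Y-linked copy of an eIF2 subunit gene, was left out by this rule. They were measured in 37 single cells, labelled adipose tissue macrophages, isolated from epididymal white fat. The mice were male, of strain C57BL/6J, and ate a high-fat diet that drew 60% of its energy from fat, 20% from carbohydrate and 20% from protein. The fat was digested with collagenase for 30 min, and sorted cells went onto the Fluidigm C1, a microfluidic device that holds single cells in chambers, before Nextera XT library preparation. The gate used for the sort is not described in these sources. The labels name no animal and no other condition, so all cells form 1 group that counts as 1 sample. Every value therefore describes these cells, which carry the numbers 0 to 36 in their titles, and no test between groups was possible.

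Translation starts when the small ribosomal subunit, held by eIF1, eIF1A, eIF3 and eIF5, receives the initiator tRNA from eIF2 and is brought to the capped end of an mRNA by the eIF4 factors. eIF2 is recharged by eIF2B and blocked when a stress kinase phosphorylates its alpha subunit, while the 4E-binding proteins hold back cap recognition until mTOR signalling releases them. After the subunits join, eEF1 brings each aminoacyl-tRNA to the ribosome and eEF2 moves the ribosome along by a codon. Not every row is itself such a factor. The Eif2ak genes and Eef2k encode kinases, the Eif4ebp genes encode inhibitors, Eif4enif1 encodes a carrier of eIF4E into the nucleus, and Eef1e1 encodes a scaffold of the tRNA synthetase complex.

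The unit is FPKM, which divides fragments by transcript length and scales them by cell, so levels can be set side by side between genes. How the cells were scaled was not given in the sources used here. Detection in a cell meant a value of at least 1 FPKM, and a gene detected in 5 cells or more is called measured. Of the 64 genes 44 were measured (68.8%), against 19.6% of all genes in the table. At least 19 cells held 18 of them (28.1%), against 4.03% of all genes, and 3 reached 1 FPKM in no cell (4.69%, against 58.3% of all genes). The median gene of the set was detected in 12 cells. The 5 genes found in at least 34 cells were Eef1a1, Eef2, Eif1, Eif4a1 and Eif5a, where 0.898% of all genes reached that number.

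**Figure D1:**
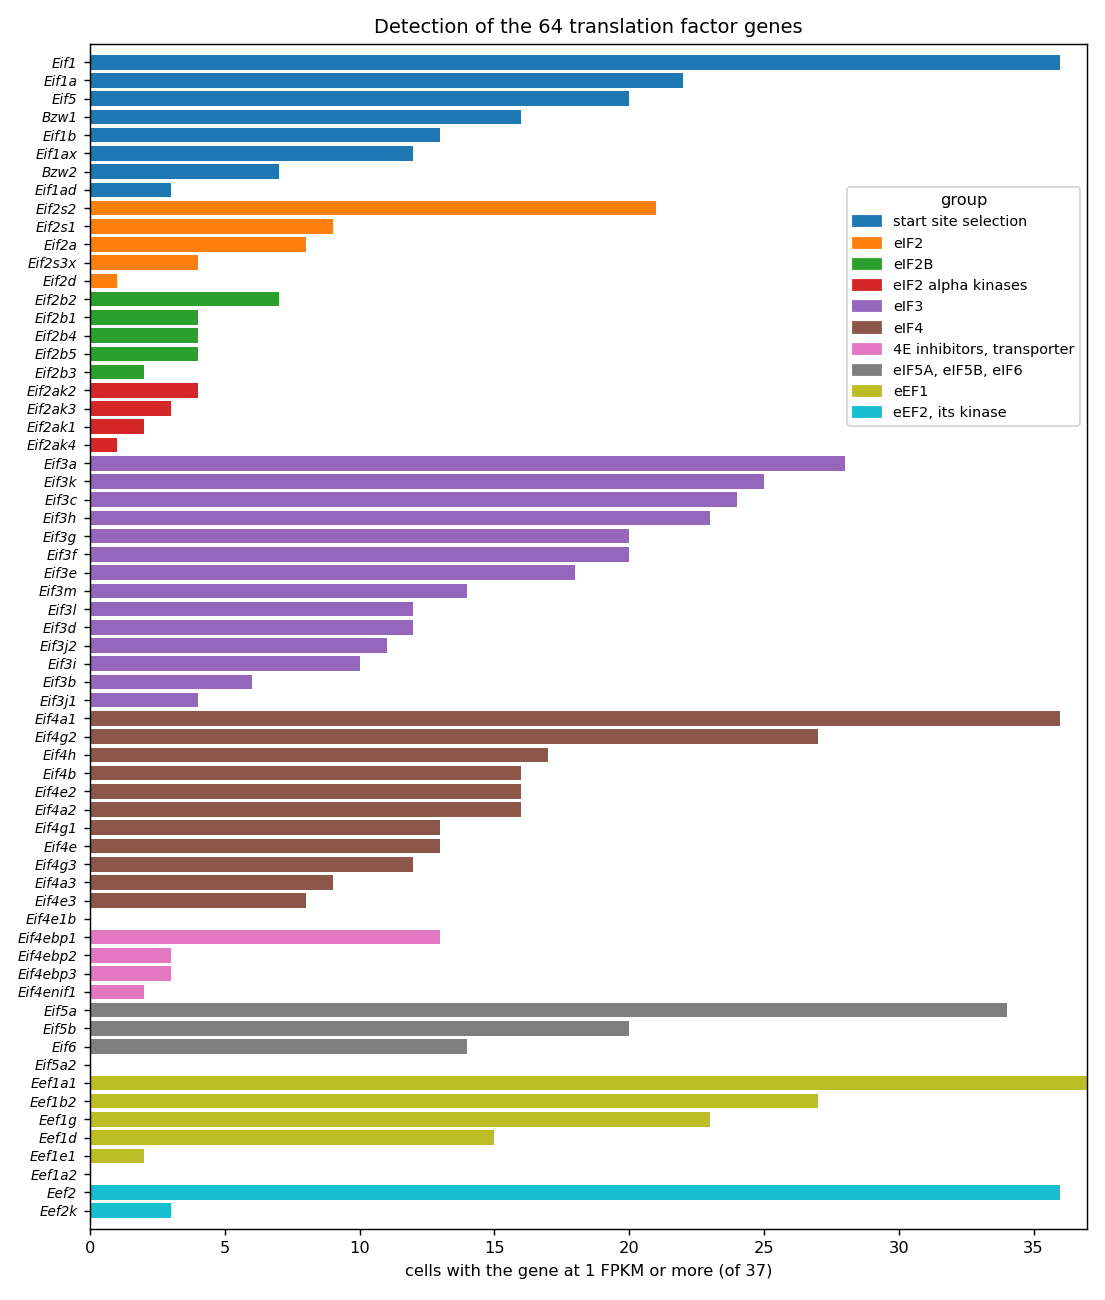
Number of cells, of 37, with each of the 64 genes at 1 FPKM or more, on the horizontal axis, with bars coloured by functional group. Eef1a1 spans all 37 cells, Eef2, Eif1 and Eif4a1 reach 36, and no eIF2 alpha kinase gene exceeds 4.

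Several factors have a near copy, so the coding sequences of pairs were compared to see how far reads could tell them apart. The lines give the middle 90 coding bases of the aligned pairs Eif1 and Eif1b, Eif4a1 and Eif4a2, and Eef1a1 and Eef1a2, in which 1 member was found in at least 36 cells and the other in fewer. They are written 5′ to 3′ from GENCODE release M21 transcripts, a set on another build than the files, with capitals where the members of a pair differ.
Eif1: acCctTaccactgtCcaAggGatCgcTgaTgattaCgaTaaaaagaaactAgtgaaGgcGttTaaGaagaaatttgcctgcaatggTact
Eif1b: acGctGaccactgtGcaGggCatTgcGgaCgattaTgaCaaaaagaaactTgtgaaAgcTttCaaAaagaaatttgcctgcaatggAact
Eif4a1: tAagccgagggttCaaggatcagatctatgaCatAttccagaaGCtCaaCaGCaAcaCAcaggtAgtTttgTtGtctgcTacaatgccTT
Eif4a2: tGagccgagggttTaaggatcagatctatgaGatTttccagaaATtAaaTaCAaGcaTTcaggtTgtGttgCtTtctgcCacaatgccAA
Eef1a1: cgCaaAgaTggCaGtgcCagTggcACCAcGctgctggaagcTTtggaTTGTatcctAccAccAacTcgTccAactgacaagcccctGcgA
Eef1a2: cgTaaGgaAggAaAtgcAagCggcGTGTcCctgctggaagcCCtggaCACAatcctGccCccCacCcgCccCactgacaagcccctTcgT
These stretches differ at 16, 20 and 26 of 90 bases.

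Over their whole coding sequences Eif1 and Eif1b were 81.3% identical, Eif4a1 and Eif4a2 78.0%, and Eef1a1 and Eef1a2 80.1%, and the longest identical run was 25, 20 and 23 bases. Eif3j1 and Eif3j2 were another matter, with identity at all 786 aligned coding bases. Of the windows of 50 bases in the whole transcript of Eif3j2, 90.8% also occurred in Eif3j1. The share was 39.4% for Eif3j1 windows in Eif3j2. Their values are therefore uncertain, most of all for Eif3j2, and are read together here. Stretches were also shared with other annotated genes, pseudogenes among them. Of the windows of 50 bases in the transcript of Eef1a1, 60.6% also occurred in transcripts of 21 other genes. The shares were 65.3% for Eif4a1, 64.3% for Eef1g, 31.6% for Eif1, 7.86% for Eef2 and 7.13% for Eif5a. Among genes found in fewer cells they were, for example, 65.5% for Eif4ebp3, 39.95% for Eif3m and 36.2% for Eif2s3x. Of the 64 genes 21 shared over 10% of their windows with another gene and 22 shared none, among them Eif3a, Eif3k, Eif3g and Eif3f. The same counts over all genes were not made, so these cannot be read as particular to the set. The counting of reads that match several places was not given in the sources used here.

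Macrophage identity and the depth of the cells were checked first. All 37 cells held at least 8 of 13 macrophage markers, at a median of 11. Cells 7 and 27 each also held 7 of 8 fibroblast and progenitor markers, and no other cell held more than 1. Summed macrophage marker levels were 327 and 139 FPKM in these cells, against 8504 to 47067 FPKM in the other 35. No cell held 3 markers of the endothelial, T cell, B cell, neutrophil, adipocyte, dendritic cell, mesothelial or erythroid lists. The number of genes detected per cell ran from 1224 to 3204, and the FPKM sum from 225528 to 1841670. Fragment counts are not in the table, but the value of 1 fragment, estimated from low values, spanned 96.5-fold. It was over 4 times its median in cells 2, 7, 15, 17, 24 and 26, which are called shallow. This value depends on the scaling of each cell as well as on its depth, so shallow need not mean fewest fragments. Cell 7, called shallow, had the most genes detected, 3204. An exact 0 can be a failed estimate, so a gene at 0 is called listed at 0.

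Elongation factor eEF1 held the most abundant gene of the set. Eef1a1 encodes the GTPase that delivers aminoacyl-tRNA to the ribosome. It ran from 15.03 FPKM to a median of 891 FPKM and a highest value of 3330 FPKM, was detected in all 37 cells (95% interval 90.5% to 100%), and ranked 32nd of all genes by median. The lowest cells were 26, 29 and 17, at 15.03, 32.1 and 89.3 FPKM, and every other cell was above 100 FPKM. The highest were 27, 0 and 7, at 3330, 2136 and 2062 FPKM. Intervals for shares of cells are exact Clopper-Pearson and cover the sampling of cells only.

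The exchange factor subunits, which reload eEF1A with GTP, were less even. Eef1b2 ran from listed at 0 to a median of 14.7 FPKM and a highest value of 265 FPKM and was detected in 27 cells (73.0%, 55.9% to 86.2%). Eef1g had a median of 6.24 FPKM and a highest value of 366 FPKM, in 23 cells. Eef1d was detected in 15 cells, with a median value of 0.176 FPKM and at most 211 FPKM. All 3 exchange subunits were found together in 10 cells, where multiplying their shares gives 6.80, and 4 cells held none. Eef1e1 was detected in cells 5 and 7 at 9.29 and 6.31 FPKM. Eef1a2, the form known from muscle and neurons, was listed at 0 in all 37 cells. Taking 3 cells as the limit for a count of 0 gives at most 8.11% of cells with 1 FPKM or more, and the exact interval reaches 9.49%. Neither allows for failed estimates.

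Eef2, whose product translocates the ribosome, ran from 0.437 FPKM to a median of 69.2 FPKM and a highest value of 13633 FPKM. It was detected in 36 cells (97.3%, 85.8% to 99.9%). Cell 24 alone held 70.0% of its sum over cells, and the next highest, cell 2, stood at 1773 FPKM. Both cells are shallow, and their part in the high values was not tested. Rescaled to a sum of 1000000 per cell, Eef2 in cell 24 was still the highest, at 7402 beside a median of 256. Eef2k, the kinase that inhibits eEF2, was detected in 3 cells, 11, 0 and 31, at 84.0, 27.4 and 15.9 FPKM. Another 14 cells held it between 0 and 1 FPKM.

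**Figure D2:**
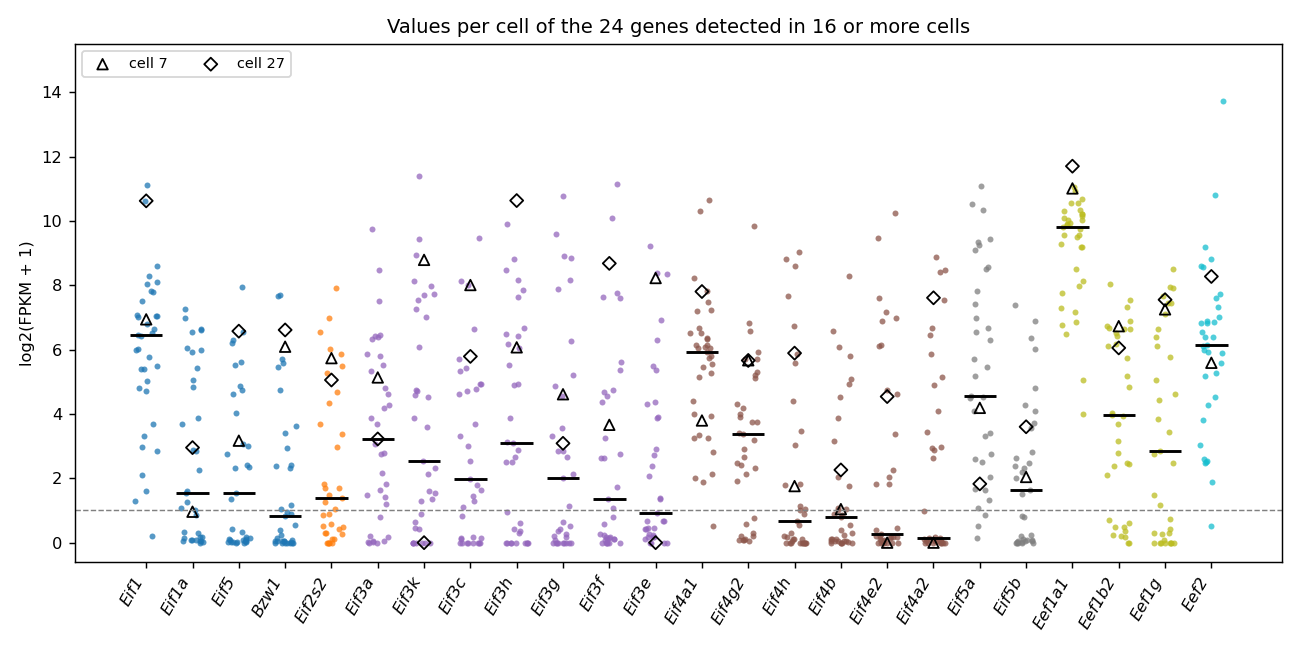
The 24 genes found in 16 or more cells, with log2(FPKM + 1) plotted vertically and 1 point per cell coloured by group and a bar at the median. The triangle is cell 7, the diamond is cell 27, and the dashed line marks 1 FPKM. Eef1a1 lies above the line in every cell, while most other genes have 1 cloud of points near 0 and another well above the line.

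Among the start site selection genes, Eif1 stood apart by its level. Its product guards against starting at the wrong codon. Eif1 ran from 0.151 FPKM to a median of 87.0 FPKM and a highest value of 2208 FPKM, in 36 cells. Cells 26, 27 and 15 were the highest, at 2208, 1577 and 1567 FPKM, and cells 10, 9 and 22 were the lowest, at 0.151, 1.46 and 2.03 FPKM. The close relative Eif1b was detected in 13 cells (35.1%, 20.2% to 52.5%), at most at 487 FPKM. Each of the 13 also held Eif1, where the product of their shares gives 12.6.

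The genes for eIF1A, which opens the scanning ribosome together with eIF1, were Eif1a in 22 cells and the X-linked Eif1ax in 12. Eif1a had a median of 1.94 FPKM and at most 152 FPKM, and Eif1ax was listed at 0 in 20 cells but reached 447 FPKM. Both were found in 5 cells, where the product of their shares gives 7.14. Eif5, which triggers GTP hydrolysis on eIF2, was detected in 20 cells with a median value of 1.93 FPKM and at most 244 FPKM. Bzw1 and Bzw2, known as mimics of eIF5, were found in 16 and 7 cells, at most at 206 and 144 FPKM. Bzw1 followed the number of genes detected more closely than any other measured gene of the set, at rho 0.69 over 37 cells. Eif1ad was detected in 3 cells.

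The subunits of eIF2 were found in unequal numbers of cells. Eif2s2, for the beta subunit, was detected in 21 cells (56.8%, 39.5% to 72.9%) with a median value of 1.61 FPKM and at most 241 FPKM. Eif2s1, for the alpha subunit that stress kinases phosphorylate, was detected in 9 cells and reached 89.3 FPKM. Eif2s3x, for the gamma subunit, was detected in 4 cells and nowhere above 7.36 FPKM. No cell held all 3, where the product of shares gives 0.552. The Y-linked gamma copy left out of the set, Eif2s3y, was at 1 FPKM or more in 11 cells, and 14 cells held at least 1 of the copies. Eif2a and Eif2d, for factors that can deliver initiator tRNA without eIF2, were detected in 8 cells and 1 cell.

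Genes that recharge or block eIF2 were found in few cells each. Of the 5 subunits of eIF2B 1 was measured, a share close to the 19.6% of all genes, and all 5 were detected somewhere. The measured gene, Eif2b2, was found in 7 cells at 63.8 FPKM or less. Eif2b1, Eif2b4 and Eif2b5 were detected in 4 cells each, and Eif2b3 in 2. Some values were far from low where present, and Eif2b5 stood at 263 FPKM in cell 20 and 106 FPKM in cell 28. No cell held more than 3 of the 5, and 24 cells held none.

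None of the 4 genes for eIF2 alpha kinases was measured, but all 4 were detected somewhere, while 58.3% of all genes were found in no cell. With 4 genes, 0 measured cannot be set apart from the 19.6% of all genes. Eif2ak2, for PKR, which senses double-stranded RNA, was detected in 4 cells and reached 34.6 FPKM. Eif2ak3, for PERK of the endoplasmic reticulum, was detected in 3 cells at 4.04 FPKM or less. Eif2ak1, for the heme-regulated kinase, was found in cells 7 and 29 at 31.9 and 1.93 FPKM. Eif2ak4, for the amino acid sensor GCN2, was found in cell 2 at 113 FPKM. In all, 28 cells held none of the 4.

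The scaffold eIF3, the largest initiation factor, was broadly but patchily detected, with 13 of its 14 genes measured and 6 found in at least 19 cells. Over all genes 19.6% were measured and 4.03% were found in at least 19 cells. Eif3a, for a core subunit, ran from listed at 0 to a median of 8.34 FPKM and a highest value of 856 FPKM and was detected in 28 cells (75.7%, 58.8% to 88.2%). Eif3k followed in 25 cells, with a median of 4.87 FPKM and a highest value of 2695 FPKM, and Eif3c in 24, with a median of 2.91 FPKM and at most 709 FPKM. Eif3h was detected in 23 cells, Eif3g and Eif3f in 20 each, Eif3e in 18 and Eif3m in 14. At the lower end Eif3b, another core subunit, was detected in 6 cells, although it reached 615 FPKM in cell 27. Outside cells 7 and 27, which hold fibroblast markers, it was detected in 4 cells, under the 5 that make a gene measured. The number of eIF3 genes detected in a cell ran from 2 in cell 20 to 13 in cell 7, with a median of 6. Eif3a and Eif3c shared 18 cells, where the product of shares gives 18.2. Eif3j1 and Eif3j2, whose coding sequences do not differ where aligned, were detected in 4 and 11 cells. The 13 measured genes count Eif3j2 but not Eif3j1, though the values of this pair are uncertain and are read together here.

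Cap recognition and unwinding were led by the helicase gene Eif4a1. It ran from 0.436 FPKM to a median of 59.6 FPKM and a highest value of 1600 FPKM, in 36 cells. Cells 26 and 2, both shallow, were the highest, at 1600 and 1274 FPKM, and cell 22 was the lowest. Eif4a2, the other helicase of initiation, was detected in 16 cells and reached 466 FPKM. Eif4a3, whose product sits in the exon junction complex, was detected in 9 and reached 690 FPKM. Eif4a1 and Eif4a2 shared 15 cells, where the product of shares gives 15.6.

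The cap-binding and scaffold genes were spread over their families. Eif4e, for the main cap-binding protein, was detected in 13 cells and nowhere above 99.9 FPKM. Eif4e2, whose product binds the cap without forming the usual complex, was detected in 16 cells and reached 1217 FPKM in cell 2. Eif4e3 was detected in 8 cells and Eif4e1b, an oocyte form, was listed at 0 in all 37. Of the scaffolds, Eif4g2, which lacks the site for eIF4E, was detected in 27 cells (73.0%, 55.9% to 86.2%) with a median value of 9.45 FPKM. It was above 1 FPKM more often than Eif4g1 and Eif4g3, found in 13 and 12 cells at 58.8 and 48.9 FPKM or less. Eif4e, Eif4g1 and Eif4a1, which make up the cap-binding complex, shared 4 cells, where the product of shares gives 4.44. The helicase partners Eif4h and Eif4b were found in 17 and 16 cells.

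Eif4ebp1, for the best known of the proteins that hold eIF4E back, was the only measured gene among the inhibitors. It was listed at 0 in 19 cells, detected in 13 (35.1%, 20.2% to 52.5%) and reached 2987 FPKM in cell 17, beside 335 FPKM in the next cell, 13. Cell 17 is shallow and held 71.1% of the sum over cells. Eif4ebp2 was detected in 3 cells with a highest value of 692 FPKM in cell 30, and Eif4ebp3 in 3 with 408 FPKM in cell 12. Eif4enif1 was found in 2 cells.

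Of the late factors, Eif5a had the widest spread of the set's genes found in at least 30 cells. Its product carries the modified lysine hypusine and helps the ribosome through difficult peptide bonds. Eif5a ran from 0.113 FPKM to a median of 22.5 FPKM and a highest value of 2170 FPKM, in 34 cells (91.9%, 78.1% to 98.3%). Cells 9, 28 and 11 were the highest, at 2170, 1487 and 1288 FPKM, while 14 cells were under 10 FPKM. Eif5a2 stayed under 1 FPKM in every cell, at 0.253 FPKM or less. Eif5b, for the GTPase that joins the subunits, was detected in 20 cells with a median value of 2.13 FPKM. Eif6, which keeps free large subunits apart from small ones, was detected in 14 cells and reached 1565 FPKM in cell 24.

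The widely detected genes differed in how evenly they were spread over cells. The interquartile range on the log2(FPKM + 1) scale was 2.10 for Eef1a1, 2.60 for Eif4a1, 2.68 for Eif1, 2.79 for Eef2 and 5.33 for Eif5a. The median over the 360 genes detected in at least 30 cells was 3.53, and Eif5a was 304th of these from the narrowest. Eef1a1 was 63rd of the 360, and 41st of the 86 genes found in every cell, so its spread was in the middle of those. These 5 genes did not rise and fall together. Their 10 pairwise rho values over 37 cells ran from -0.31 for Eef1a1 with Eef2 to 0.45 for Eif1 with Eif4a1.

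The set as a whole took a small part of each cell's FPKM sum, from 0.255% in cell 29 to 1.89% in cell 22, with a median of 0.849%. Eef1a1 made up a median of 33.6% of that part and was the highest gene of the set in 24 of 37 cells. The 13 exceptions had different leaders. Eif5a led in 3 cells, Eef2, Eif1 and Eif4ebp1 in 2 each, and Eif3f, Eif3g, Eif4e2 and Eif6 in 1 each. In cell 24 Eef2 made up 70.7% of the set's FPKM and Eef1a1 0.554%.

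**Figure D3:**
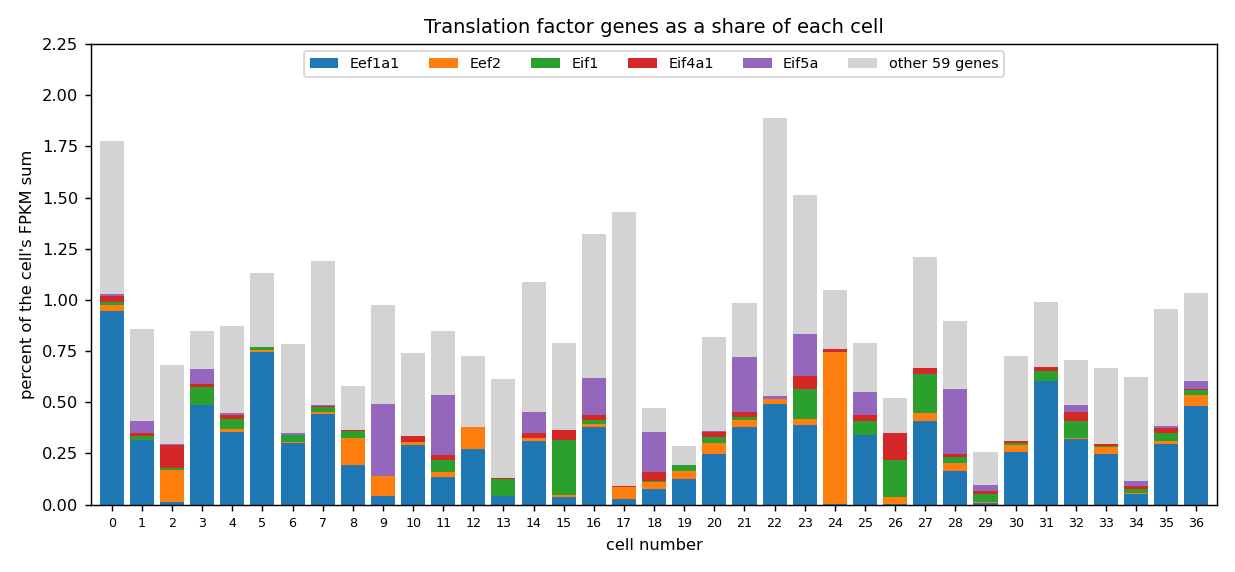
Share of each cell's FPKM sum taken by the set, in percent on the vertical axis, with the cell number on the horizontal axis. Coloured segments are the 5 most widely detected genes and grey is the sum of the other 59. The bars run from 0.255% in cell 29 to 1.89% in cell 22, blue Eef1a1 is the single gene with the highest value in 24 cells, and Eef2 fills most of the bar of cell 24.

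Most values were low. Of 2368 values 44.2% were listed at 0, 20.1% lay between 0 and 1 FPKM, and 9.54% were at 100 FPKM or more. In 9 of the 44 measured genes (20.5%) 1 cell held over 50% of the sum, against 36.6% of all measured genes. Of the 61 genes detected anywhere, 21 had their highest value in 1 of the 6 shallow cells. After the same rescaling that number was 12. The part of depth in these peaks was not tested further. Cells 7 and 27, with fibroblast markers, held the highest value of 7 genes, among them Eef1a1, Eif3h, Eif3l and Eif3b in cell 27. The same counts of peaks over all genes are not given here, so none of these counts can be read as particular to the set.

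The number of the 64 genes detected in a cell ran from 15 to 41, with a median of 22, and followed the number of all genes detected. Over 37 cells the numbers were related at rho 0.84 and r 0.88, with r 0.82 after removal of the 2 cells farthest from the median. Cells 7 and 27 had the most, at 41 and 35, and also the most genes in all, at 3204 and 3054. They held 64.1% and 54.7% of the 64 genes, and 37 and 32 of the 44 measured ones. Of all measured genes in the table they held 49.2% and 45.3%. In the other 35 cells the medians were 34.4% of the 64 genes and 32.5% of all measured genes. Cell 28 held 48.4% of the 64 genes, 29 of the 44 measured ones and 49.0% of all measured genes. Shares of the 64 include genes that were not measured, so they cannot be set directly against shares of measured genes.

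**Figure D4:**
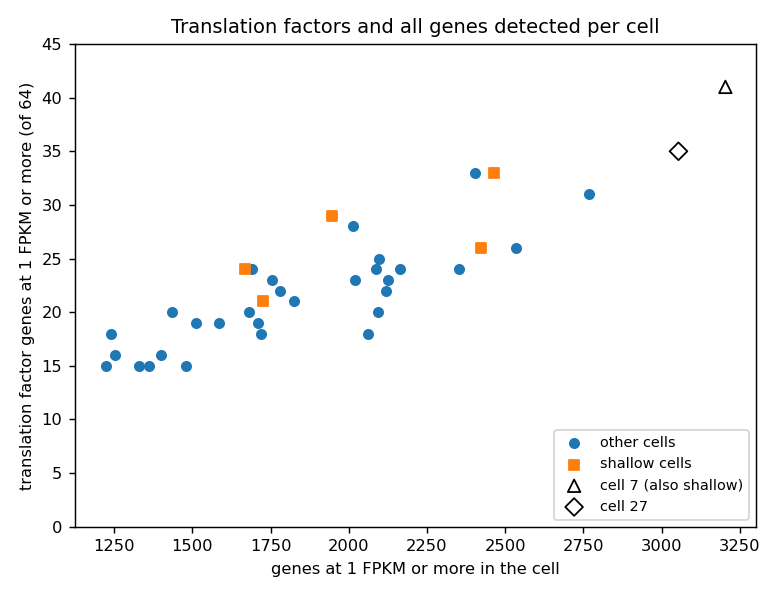
Number of the 64 genes at 1 FPKM or more in each cell, on the vertical axis, against the number of all genes at 1 FPKM or more, on the horizontal axis. Squares are shallow cells other than cell 7, the triangle is cell 7 and the diamond is cell 27. Cells with more genes in all held more of the set, from 15 to 41.

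Relations among the measured genes of the set were weak. Their mean pairwise Spearman rho over 37 cells was 0.05, and that of all 4694 measured genes was 0.03. Without cells 7 and 27 the values were 0.03 and 0.03. The cells were prepared on the same kind of device and differ in depth. By group the mean was 0.14 for start site selection, 0.12 for eEF1, 0.06 for eIF3, 0.04 for eIF4, -0.07 for eIF2 and -0.11 for the late factors. Only 4 of 946 pairs (0.423%) reached 0.5, against 0.269% of all pairs. The highest were Eef1a1 with Eif3h at rho 0.56 (r 0.53) and Eef2 with Eif4g3 at 0.56 (r 0.33). Next came Eif2s2 with Eif4b at 0.55 (r 0.32), Eif4ebp1 with Eif4g1 at 0.54 (r 0.37) and Eef1g with Eif4e at 0.49 (r 0.57). The lowest were Eif3a with Eif3f at -0.43, Eef1a1 with Eif4e2 at -0.43 and Eif4b with Eif4h at -0.42. These pairs were picked as the extremes of 946.

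**Figure D5:**
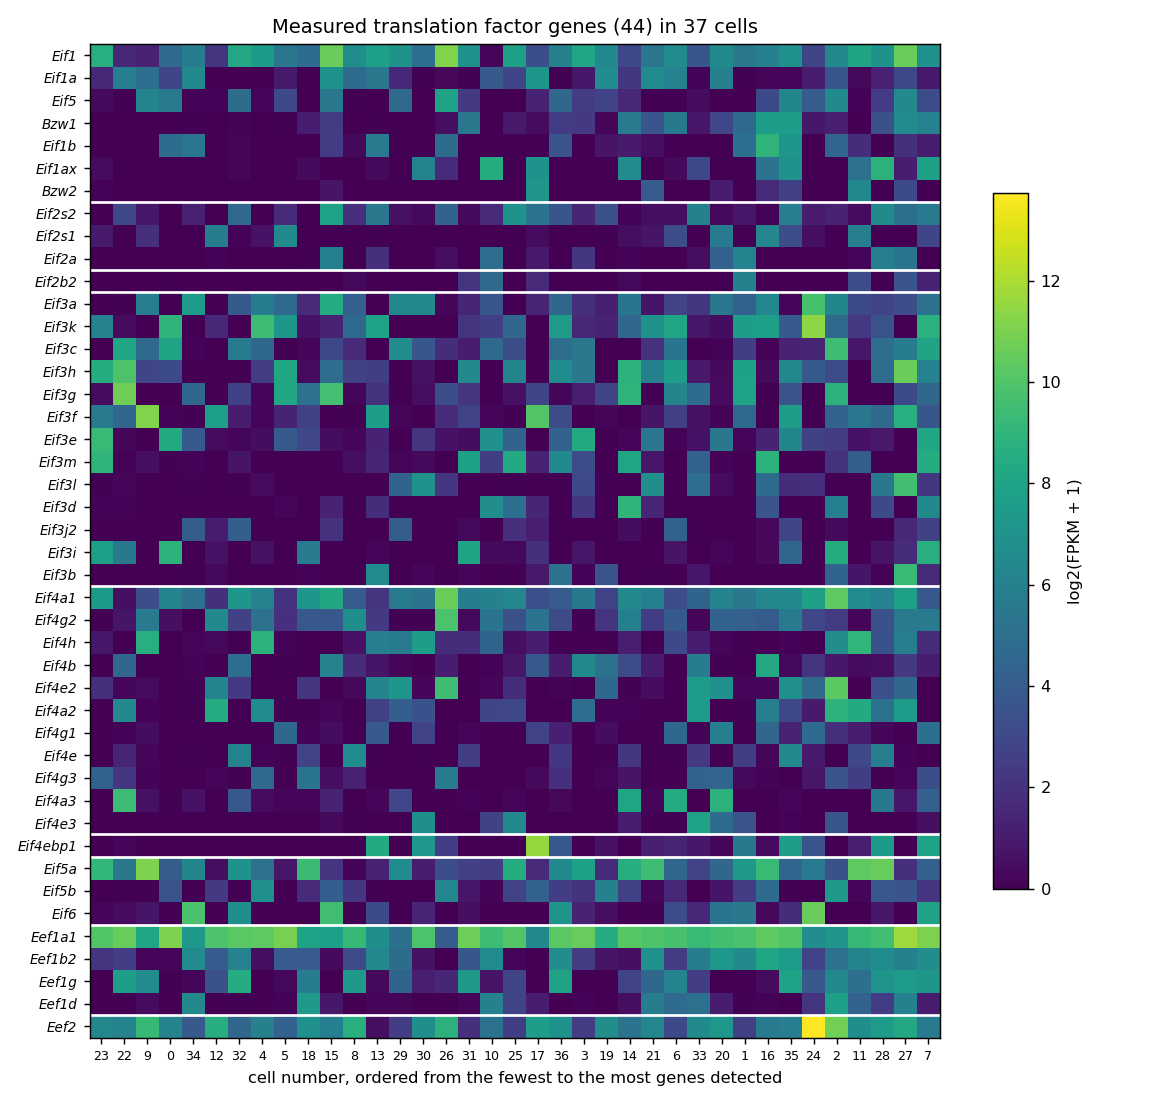
Values of the 44 measured genes as log2(FPKM + 1), shown by colour, with genes in rows by group and cells in columns from the fewest to the most genes detected. Eef1a1 is bright in nearly every column, while rows of eIF3 and eIF4 genes are a patchwork with no shared block of cells.

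A score for the set, the mean z value of the 44 measured genes, was set beside other measures over the 37 cells. With the number of genes detected it had rho 0.73 and r 0.82, with r 0.71 after removal of the 2 farthest cells. With the value of 1 fragment it had rho 0.30 and r 0.34. With a score of 90 measured rows named as ribosomal proteins it had rho 0.36 and r 0.51, but r was 0.25 without those 2 cells. The relation was uneven along the cell numbers, at rho 0.01 in cells 0 to 19 and 0.62 in cells 20 to 36. The labels give this split by cell number no meaning. Without cells 7 and 27, which hold fibroblast markers, rho was 0.245. Eef1a1 by itself had rho 0.42 and r 0.54 with the ribosomal score. With the number of genes detected its rho was 0.02.

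Other genes of the pathway came from lists set by function. Over all genes in the table, 19.6% were measured and 4.03% were found in at least 19 cells. Of 11 genes for termination, recycling and poly(A) binding 7 were measured and 1 was found in at least 19 cells. This was Pabpc1, for the poly(A)-binding protein, in 36 cells with a median value of 47.7 FPKM. Etf1, for the release factor that reads stop codons, was detected in 13 cells and Paip1 in 12. Tpt1, known as a partner of elongation factors, was detected in all 37 cells with a median value of 438 FPKM. It was highest in cell 26, at 15703 FPKM, where Eef1a1 was lowest.

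Of 18 genes of mTORC1 and cap control 12 were measured, against 19.6% of all genes. They were led by Rps6 in 32 cells and Pdcd4, an inhibitor of eIF4A, in 30, at medians of 60.0 and 30.97 FPKM. Lamtor1, of the lysosomal anchor of mTORC1, was detected in 19 cells. Of 14 genes of the integrated stress response, the programme set off by eIF2 alpha phosphorylation, 9 were measured and 6 were found in at least 19 cells. Over all genes these shares were 19.6% and 4.03%. Cebpb was detected in 35 cells, Hspa5 in 30 and Atf3 in 28, at medians of 93.1, 47.1 and 16.7 FPKM. Trib3, Chac1, Sesn2 and Ddit4 of this list were found in no cell, as were 58.3% of all genes, and Asns was found in 1. Atf4, whose mRNA is translated when eIF2 is limiting, was detected in 21 cells. The stress score had rho 0.34 and r 0.45 with the score of the set, with r 0.32 after removal of the 2 farthest cells. Its rho was 0.189 without cells 7 and 27 and 0.157 without the shallow cells. None of the 8 mitochondrial translation factor genes was measured, each being found in 4 cells or fewer. With 8 genes, 0 measured cannot be set apart from the 19.6% of all genes. Only 1 of them was found in no cell, against 58.3% of all genes.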

How the data were processed

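Single-cell RNA of 37 cells was measured. Values are FPKM in 1 deposited table of 23947 genes. Per the submitters' processing notes, the tools were STAR and Cuffnorm and the build was mm9; the versions, gene models and options were not given in the sources used here. Fragment counts are not in the table, so the depth is unknown and no count test was used. The 64 members and the lists were chosen with earlier results of these data known. Values were transformed to log2(FPKM + 1). The relative value of 1 fragment in each cell came from the commonest ratio between cells of values from 0.005 to 1 FPKM. Of 666 pairs of cells 522 entered the least-squares solution. This step and the mean rho were tested on simulated data. Scores were mean z values over measured genes. No p-value was made from cells. The name pattern for ribosomal proteins also took the S6 kinase and S19 binding protein genes.

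Named genes were, in each group, the 3 detected in most cells, all members of fixed families, the genes in at least 30 cells by interquartile range, and the 5 highest and 3 lowest pairs by rho; in each other list, the 3 detected in most cells. Other names were chosen after their values were seen. Transcript comparisons used GENCODE M21 (GRCm38) and Biopython 1.88, with the transcript of longest coding sequence for each of 64 genes; no coordinates are printed, since the builds differ. The remaining steps used Python 3.11.15, numpy 2.4.6 and pandas 2.3.3. No Eif2c gene was in the set, so that alternative left out the 5 kinase genes only.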

Additional observations from a re-analysis of the deposited data

How the results depend on the processing

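Of 69 values under alternatives 58 stayed within the limits set for them. Limits were 1.5 times for counts, 1 SD over cells for per-cell medians and 0.1 for rho. Some of the 58 could not move by construction. No kinase gene was measured, so leaving these genes out could not change any rho. The mean pairwise rho of ranks cannot change with the value added before log2, nor a share with rescaling. The limit of 0.1 is also wider than the mean pairwise rho itself, 0.05 as reported. The number of measured genes ran from 37 to 54 and the median share of the FPKM sum from 0.846% to 0.896%. The mean pairwise rho ran from 0.03 to 0.06. The rho of the set's score with the ribosomal score was 0.245 without cells 7 and 27, 0.012 in cells 0 to 19 and 0.620 in cells 20 to 36. With the stress score rho was 0.189 without cells 7 and 27, 0.157 without shallow cells and 0.137 in cells 20 to 36. With the number of genes detected it was 0.556 in cells 20 to 36. The cause was not tested for these. By construction, with fewer cells, the median gene was detected in 6 of cells 0 to 19 and 5 of cells 20 to 36. By construction too, the median cell held 30 of the genes with detection at 0.1 FPKM and 15 at 5 FPKM. Leaving out the S6 kinase and S19 binding protein genes, chosen after seeing the data, gave rho 0.299 with the ribosomal score. No paired analysis was possible because there is 1 group. With 1 sample and unknown depth, a gene listed at 0 was not detectable here and may not be absent.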

Other observations

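Cells 17 and 13, with the highest Eif4ebp1, and cell 26, with the lowest Eef1a1, were picked after their values were seen. In cell 17, Eef1a1 stood at 89.3 FPKM and Eif4ebp1 at 2987 FPKM. The stress response genes Nupr1 and Cebpb were also at their highest there, at 6928 and 773 FPKM. Of the same list Hspa5 stood at 427 FPKM in cell 17, Ppp1r15a at 307 FPKM, Atf3 at 5.68 FPKM and Atf4 at 1.67 FPKM. Ddit3, Xbp1 and Ppp1r15b were listed at 0 there. Cell 13 had the next highest Eif4ebp1, at 335 FPKM, with Nupr1 at 1157 FPKM and Ppp1r15b, for a subunit of the phosphatase that reverses eIF2 alpha phosphorylation, at 222 FPKM. Of the same list, Ppp1r15a stood at 202 FPKM there, Cebpb at 93.1 FPKM, Atf3 at 30.6 FPKM and Hspa5 at 2.15 FPKM, and Ddit3 and Xbp1 were listed at 0. In cell 26 Eif1, Eif4a1 and Tpt1 were at their highest and Atf4 stood at 1149 FPKM, and Eif4ebp1 was at 4.85 FPKM. Of the same list, Cebpb stood at 295 FPKM in cell 26, Hspa5 at 144 FPKM and Ppp1r15b at 24.1 FPKM. Lower there were Ppp1r15a at 5.79 FPKM, Nupr1 at 5.44 FPKM and Atf3 at 1.30 FPKM, and Ddit3 and Xbp1 were listed at 0. Cells 17 and 26 are shallow. Over the 37 cells Eif4ebp1 had rho 0.28 and r 0.37 with the stress score, and rho 0.51 with the number of genes detected.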
